A study of Mus musculus with 10 samples.

Results

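Conventional dendritic cells (cDCs), the antigen-presenting cells that prime T cells, fall into an XCR1-type and a SIRPA-type subset, and 10 genes that mark these subsets or both of them were followed in CD117+ splenocytes. The members were 5 XCR1-type genes (Xcr1, Clec9a, Batf3, Itgae and Cd8a), 2 SIRPA-type genes (Sirpa and Esam) and 3 shared genes (Itgax, Zbtb46 and Dpp4), of 25664 gene symbols that have a probe set of their own on the array. Each member was read from the brightest probe set that names it alone or, where none does, from the brightest that lists it. Only Clec9a needed the second choice: its single probe set also lists the neighboring gene Clec1b, which encodes a receptor of platelets, so that its signal cannot be assigned to Clec9a alone.

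CD117+ cells had been magnetically selected from the spleens of 5 WT and 5 RasGRP4-null male C57BL/6 mice, 9 to 12 wk of age. RNA was hybridized to Affymetrix MoGene-2.0-st arrays before culture (0 h) and after 12, 24, 36 and 48 h with 1 µg/ml LPS, the endotoxin that TLR4 recognizes. Each combination of genotype and time was hybridized once, 10 arrays in all, and no cells cultured without LPS were measured. The effect of LPS and that of time in culture therefore cannot be told apart. Which mice each array came from is not given, arrays of 1 genotype may come from a common preparation, and the p-values below measure the spread among these arrays only. Time points follow the array titles. The design text lists 6 h where the titles have 36 h, and for 3 RasGRP4-null arrays the source name states an earlier time.

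In mouse spleen, XCR1-type cDCs depend on the AP-1 family transcription factor BATF3 and are known for cross-presenting the antigens of dead cells to CD8+ T cells. SIRPA-type cDCs depend more on IRF4 and NOTCH2 and mainly prime CD4+ T cells. Both subsets carry CD11c, the product of Itgax, and express the lineage factor ZBTB46. Several of these genes are also used by other cells: Cd8a by T cells, Sirpa and Itgax by macrophages, and Dpp4 by T cells.

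Intensities below are PLIER values, the authors' summary of each probe set, and background was set, array by array, at the 95th percentile of the 1089 probe sets for olfactory receptors (29.1 to 38.5). Kit, which encodes CD117, was above background on all 10 arrays (133.4 to 333.9). Rasgrp4, the disrupted gene, was at 86.4 in untreated WT cells, the only array on which it was above background, and at 16.7 in untreated RasGRP4-null cells. Levels of different probe sets are not comparable, so only changes within a member are set side by side. Changes were tested with limma on log2(PLIER + 16) of 11186 genes, with genotype and time point as terms, p-values adjusted over all of these genes and a threshold of 0.05. Gapdh itself, read from a probe set that lists 21 symbols, was higher after LPS (2815 to 3893) than at 0 h (1487 and 1633). Actb, a further check gene, was at 2666 and 2671 at 0 h and between 2536 and 3158 after LPS. The median log2 change of all genes tested was 0.26 on the PLIER scale and -0.70 after the authors' normalization to GAPDH, and 69.2% and 11% of the called genes were higher on these scales.

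The untreated cells of both genotypes had signal for most of the members. Of the 10 members, 8 were above background on both untreated arrays, and the remaining 2, Itgae and Esam, only on the RasGRP4-null one. The count of 8 was 10 with background at the 90th percentile of the olfactory receptors and 7 at the 99th. The share of all genes above background was not counted. Itgae differed little: 37.9 against a background of 38.5 in WT cells and 40.7 against 31.2 in RasGRP4-null cells. After 12 h of LPS the signals of Clec9a, Cd8a, Xcr1, Sirpa and Itgax were far below their untreated levels and stayed there. Batf3, Zbtb46 and Dpp4 showed no fall of that size. Sirpa and Cd8a, like Batf3, Zbtb46 and Dpp4, were above background on all 10 arrays, Cd8a only narrowly after LPS.

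**Figure D1:**
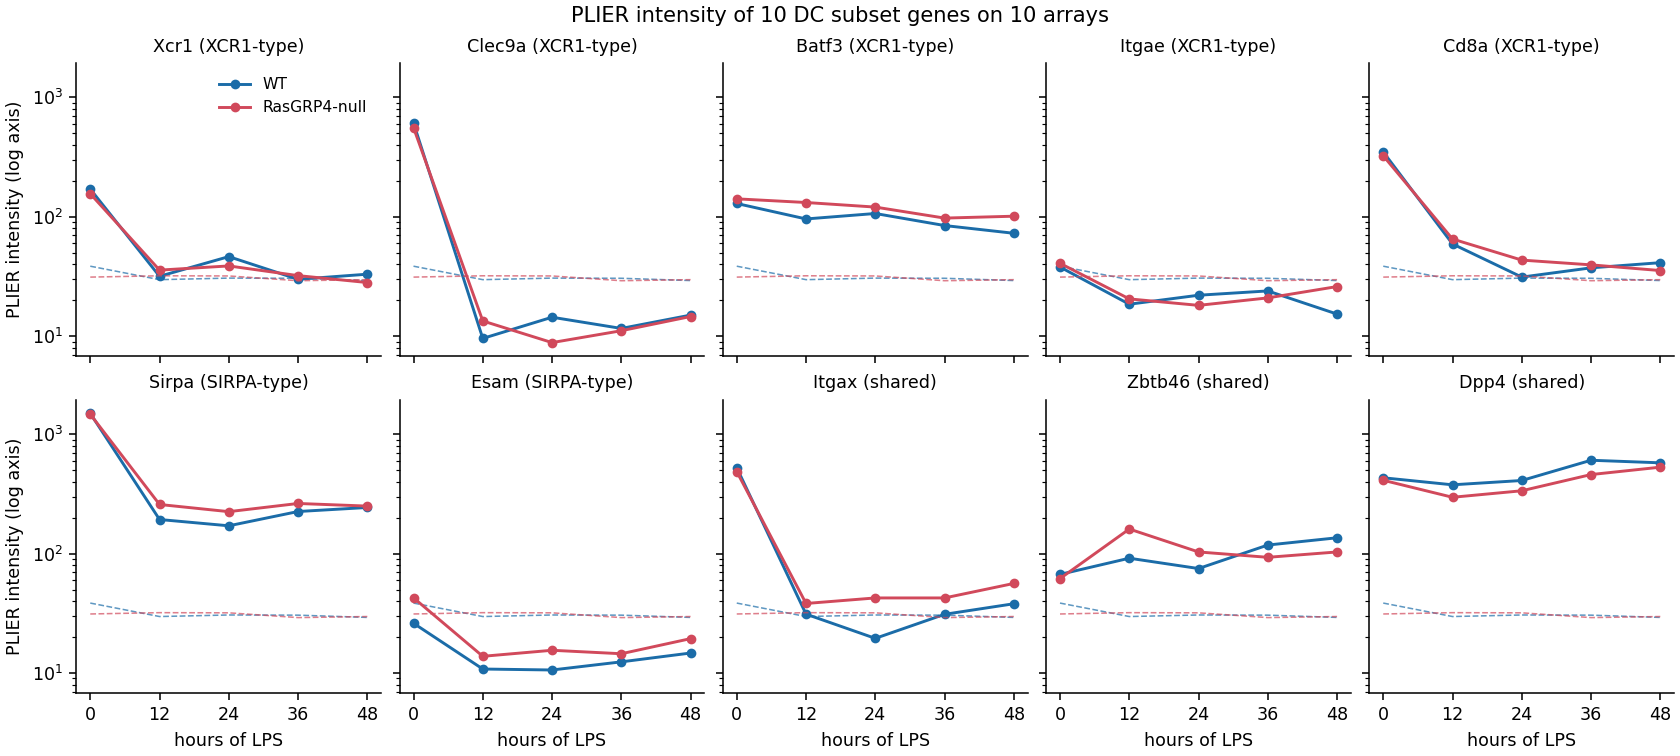
PLIER intensity (vertical log axis) against hours of LPS for each of the 10 members, with 1 point per array, blue for WT and red for RasGRP4-null cells; dashed lines are the background of each array. Clec9a dropped from 608.2 and 556.8 to at most 15.0, while Dpp4 stayed between 295.8 and 603.8.

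The proximal promoters of 5 members are shown first, because 4 of them (Itgax, Xcr1, Clec9a and Cd8a) belong to the genes that dropped together and the fifth, Batf3, encodes a factor that binds AP-1 type sites. They are the 250 bases before the transcript start in RefSeq, build GRCm38.p6, in which 7 of the 10 members were found (Xcr1, Clec9a, Batf3, Cd8a, Itgax, Zbtb46 and Dpp4); the build used for the array is not given in the sources used here. The windows lie at chr7:128129300-128129549 (plus strand), chr9:123862030-123862279 (minus strand), chr6:129408612-129408861 (plus strand), chr6:71373177-71373426 (plus strand) and chr1:191098164-191098413 (plus strand). Capitals mark matches, on either strand, to TGANTCA (AP-1), GAAANNGAA (IRF), AGGAAG (ETS), TTCNNNGAA (STAT) or GGGANTTTC (NF-kB).
Itgax: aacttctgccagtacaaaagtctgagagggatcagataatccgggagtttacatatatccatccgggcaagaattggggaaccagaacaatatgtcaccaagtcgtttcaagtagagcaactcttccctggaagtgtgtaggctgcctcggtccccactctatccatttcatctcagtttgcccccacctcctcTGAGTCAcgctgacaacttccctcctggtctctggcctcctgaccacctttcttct
Xcr1: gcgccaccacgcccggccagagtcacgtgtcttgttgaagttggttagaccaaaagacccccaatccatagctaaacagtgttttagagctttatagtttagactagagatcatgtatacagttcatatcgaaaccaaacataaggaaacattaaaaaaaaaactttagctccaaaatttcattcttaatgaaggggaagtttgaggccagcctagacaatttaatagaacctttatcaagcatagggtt
Clec9a: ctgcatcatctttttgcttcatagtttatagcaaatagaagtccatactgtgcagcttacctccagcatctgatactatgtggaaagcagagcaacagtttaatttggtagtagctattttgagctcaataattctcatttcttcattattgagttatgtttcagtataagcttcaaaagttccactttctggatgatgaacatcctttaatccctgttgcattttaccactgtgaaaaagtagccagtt
Cd8a: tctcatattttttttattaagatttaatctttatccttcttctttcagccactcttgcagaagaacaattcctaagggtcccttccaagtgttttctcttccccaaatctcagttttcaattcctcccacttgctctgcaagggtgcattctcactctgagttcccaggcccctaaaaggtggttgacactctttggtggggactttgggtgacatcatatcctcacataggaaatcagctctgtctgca
Batf3: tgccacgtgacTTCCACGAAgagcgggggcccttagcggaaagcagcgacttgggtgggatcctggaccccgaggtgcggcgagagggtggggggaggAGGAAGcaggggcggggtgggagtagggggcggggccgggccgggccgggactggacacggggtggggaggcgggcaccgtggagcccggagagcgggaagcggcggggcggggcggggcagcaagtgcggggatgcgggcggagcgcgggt
The Itgax window held 1 AP-1 match, which starts 56 bases before the start, and the Batf3 window held 1 ETS match and 1 STAT match, 152 and 239 bases before it. Those of Xcr1, Clec9a and Cd8a held none of the 5 motifs. Over all 32851 promoter windows of RefSeq of this length, 6.75% held the AP-1 letters, 7.13% the IRF, 29.5% the ETS, 7.02% the STAT and 0.941% the NF-kB letters. The E-box letters CANNTG, not capitalized, were in the windows of Xcr1, Clec9a, Cd8a and Batf3 and in 66.2% of all windows. A match is a string of letters and not an observed binding site. Of the windows not printed, that of Zbtb46 held 1 AP-1 match and that of Dpp4 1 IRF and 1 ETS match. The Zbtb46 window lies wholly inside the gene as RefSeq annotates it, as do 84 bases of the Dpp4 window and the last 24 of the Itgax window, since the starts of the table need not be the outermost ones.

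Over 12 to 48 h of LPS against 0 h, 6 of the 8 members tested were lower, 1 (Zbtb46) was higher on the PLIER scale but not after normalization to GAPDH, and 1 did not pass. Over all genes tested, 21.5% were called lower and 48.2% higher. The members that were lower were Clec9a, Itgax, Sirpa, Cd8a, Xcr1 and Batf3, in order of the size of the change, and Dpp4 did not pass. Itgae and Esam were too dim for the test, which took only genes that reached a PLIER value of 50 on 2 or more arrays. Without this filter both were called lower in limma, with log2 changes of -0.60 and -0.73, against 3936 of 25665 genes. Clec9a, Xcr1 and Itgax met the filter only because of their untreated values (highest LPS values 15.0, 46.3 and 56.2). The filter admits genes that are high only at 0 h, which favors lower calls for members, lists and all genes. The median log2 change of the 8 members was -2.20, and it is the same with Clec9a at its bound. In bulk RNA fewer cells of a type and less RNA per cell cannot be told apart.

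XCR1, the chemokine receptor for which the subset is named, lets these cells follow XCL1 from NK and CD8+ T cells. The PLIER value of Xcr1 was 170.2 in untreated WT cells and then 31.7, 46.3, 29.9 and 33.0 at 12, 24, 36 and 48 h of LPS. In RasGRP4-null cells it was 155.5 and then 35.7, 38.7, 32.1 and 28.1. All 8 LPS values lay below both untreated values and close to background, and 6 of them were above it. The log2 change was -1.83 (SE 0.107, limma adjusted p = 9.1e-08).

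CLEC9A is a C-type lectin with which XCR1-type cDCs sense the exposed actin of dead cells. The shared probe set of Clec9a and Clec1b gave 608.2 in untreated WT cells and then 9.57, 14.4, 11.6 and 15.0. The RasGRP4-null values were 556.8, 13.4, 8.83, 11.1 and 14.6. No LPS array was above background, so that the level after LPS was at least 19.2-fold lower, taking background as the level of each LPS array (limma adjusted p = 1.79e-10). The probe set that names Clec1b alone followed the same course, from 703.7 in WT and 911.7 in RasGRP4-null cells to values of 15.2 to 21.9, all below background. How much of the shared signal came from either gene was not tested.

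The alpha chain of CD8, encoded by Cd8a, is displayed as a homodimer by resident XCR1-type cDCs and as a heterodimer with CD8B by T cells. Its PLIER values were 348.1, 59.1, 31.2, 37.3 and 41.2 in WT cells and 323.2, 65.0, 43.3, 39.5 and 35.4 in RasGRP4-null cells. The untreated values were far above all 8 LPS values, which were themselves above background but near it (log2 change -2.57, SE 0.116, limma adjusted p = 1.13e-08). The lowest, 31.2, stood against a background of 30.6, and none exceeded the 99th percentile of the olfactory receptors. Cd8b1, the partner chain that T cells make, was at 103.1 and 83.2 at 0 h and between 60.7 and 87.9 after LPS, and its log2 change was -0.27 (SE 0.107, limma adjusted p = 0.0421). The difference between the changes of Cd8a and Cd8b1 was not tested.

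BATF3 pairs with JUN proteins and cooperates with IRF8 on the genes of XCR1-type cDCs. Batf3 was above background on all 10 arrays, and its untreated and LPS values overlapped. Its PLIER values were 128.9, 95.7, 106.3, 84.3 and 72.6 in WT cells. In RasGRP4-null cells they were 141.0, 131.4, 120.3, 97.3 and 100.9, so that the RasGRP4-null value at 12 h exceeded the untreated WT value. The log2 change was -0.38 (SE 0.107, limma adjusted p = 0.00786). It was -0.30 and did not pass when the untreated WT array was left out, and -0.23 and did not pass when 12 and 24 h alone were set against 0 h. After normalization to GAPDH it was -1.38, and relative to the median of all genes it was -0.64 on the PLIER scale and -0.68 after that normalization.

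Itgae encodes the CD103 chain that, with ITGB7, binds E-cadherin. Its PLIER values were 37.9 in untreated WT cells, below background, and 40.7 in untreated RasGRP4-null cells, above it. After LPS they ranged from 15.3 to 26, and none of the 8 was above background. Itgb7 was at 200.2 and 251.1 at 0 h and between 38.7 and 117.0 after LPS (log2 change -1.46, SE 0.107, limma adjusted p = 5.65e-07). Cdh1, which encodes E-cadherin itself, went from 83.7 and 88.3 to values of 37.2 to 46.2 (log2 change -0.82, limma adjusted p = 2.39e-05).

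SIRPA is the inhibitory receptor for CD47, through which cells signal that they should not be engulfed. The PLIER value of Sirpa was 1491 in untreated WT cells and 192.7, 170.7, 224.8 and 243.0 over the LPS time course. In RasGRP4-null cells it was 1464 at 0 h and 257.4, 224.2, 262.5 and 249.6 thereafter. The groups did not overlap, yet all LPS values remained above background (log2 change -2.62, SE 0.115, limma adjusted p = 8.87e-09). Its ligand gene Cd47 had a log2 change of 0.25 (limma adjusted p = 0.0638). Esam, an adhesion molecule of the NOTCH2-dependent SIRPA-type cDCs of the spleen, was at 26.1 in untreated WT cells, below background, at 42.6 in untreated RasGRP4-null cells and between 10.6 and 19.4 after LPS, below background on all 8 arrays. With only Sirpa measured well in its group, the SIRPA-type side rests on 1 gene that macrophages also express.

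Among the shared genes, Itgax showed the steepest fall. The integrin chain it encodes, CD11c, is the usual surface marker of cDCs. Its PLIER values were 522.4, 31.1, 19.5, 31.0 and 38.0 in WT cells and 485.5, 38.2, 42.5, 42.5 and 56.2 in RasGRP4-null cells. Values after LPS were above background on 7 of 8 arrays, and all were far below the untreated ones (log2 change -3.31, SE 0.140, limma adjusted p = 6.79e-09). None of the LPS values exceeded the 99th percentile of the olfactory receptors. Itgb2, the beta chain with which CD11c pairs, was at 802.0 and 788.2 at 0 h and between 240.6 and 488.1 after LPS (log2 change -0.98, SE 0.151, limma adjusted p = 0.000148).

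Zbtb46 was the only member that was called higher. It encodes a zinc finger factor confined within the immune system largely to cDCs and their precursors. Its PLIER values were 66.9, 91.4, 74.9, 117.8 and 135.5 in WT cells and 61.7, 160.4, 103.1, 93.0 and 103.1 in RasGRP4-null cells. Neither untreated value exceeded the 99th percentile of the olfactory receptors, and 7 of the 8 LPS values did. All 8 LPS values exceeded both untreated values, with the highest at 12 h in RasGRP4-null and at 48 h in WT cells. The log2 change was 0.62 (SE 0.183, limma adjusted p = 0.0103), and it was 0.52 and did not pass without the untreated RasGRP4-null array. After normalization to GAPDH the log2 change was -0.29 (limma adjusted p = 0.219), so the direction depends on the scale. Relative to the median of all genes it was 0.36 on the PLIER scale and 0.41 after normalization to GAPDH.

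Dpp4, the gene of the peptidase CD26, which cleaves CXCL12 and binds adenosine deaminase, was above background on all 10 arrays. Its PLIER values were 430.8, 376.1, 408.7, 603.8 and 574.6 in WT cells and 410.5, 295.8, 335.3, 458.3 and 528.4 in RasGRP4-null cells. In both genotypes the PLIER values were below 0 h at 12 and 24 h and above it at 36 and 48 h, whereas after normalization to GAPDH all 8 LPS values were below 0 h. The mean log2 change over the LPS time points was 0.05 (SE 0.107, limma adjusted p = 0.700). It was 0.34 and passed for 36 and 48 h alone, and -1.0 and passed on the GAPDH-normalized scale. Relative to the median of all genes it was -0.21 on the PLIER scale and -0.29 after normalization to GAPDH. On the PLIER scale the changes at 36 and 48 h were 0.04 and 0.09 relative to that median. The log2 changes of Cxcl12 and Ada, a substrate and a binding partner of the enzyme, were -0.19 and -0.14 (limma adjusted p = 0.130 and 0.473).

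**Figure D2:**
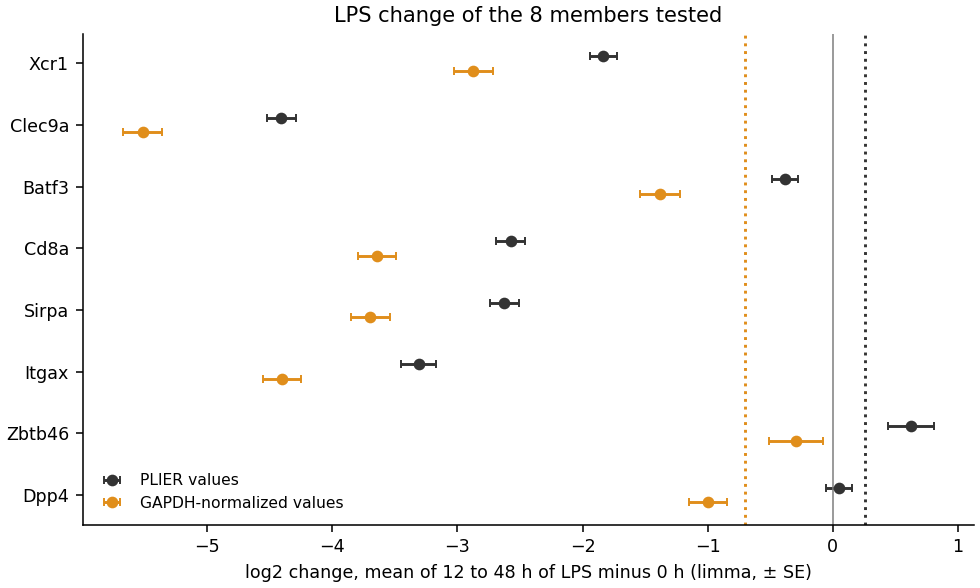
Log2 change of the 8 members tested (mean of 12 to 48 h of LPS minus 0 h, horizontal axis) with its standard error from limma, in black for PLIER and in orange for GAPDH-normalized values; dotted lines are the median of all genes on each scale. Clec9a, Itgax, Sirpa, Cd8a and Xcr1 lie at -1.83 or below on the PLIER scale, and Zbtb46 lies above the median of all genes on both.

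The LPS changes of the XCR1-type genes lay on both sides of that of Sirpa. Of the members above background in untreated cells of both genotypes, 4 were XCR1-type (Xcr1, Clec9a, Batf3 and Cd8a, with log2 changes from -4.41 to -0.38) and 1 was SIRPA-type (Sirpa, -2.62, inside that range). The mean of the 4 changed by 0.33 less downward than Sirpa on the log2 scale, with an SD of 0.24 over the 8 LPS arrays. This value was given no test, because the members had been chosen with results known. It was 1.03 without Clec9a, -0.06 with a pseudocount of 1 and 0.79 with a pseudocount of 64, so that no order of the subsets can be read from it.

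Within the LPS time course, 2 of the 8 members tested differed between 48 h and 12 h. Over all genes tested, 9.70% were called lower and 12.8% higher at 48 h than at 12 h. Cd8a was lower at 48 h (log2 difference -0.53, SE 0.146, limma adjusted p = 0.0253): 59.1 and 65.0 at 12 h became 41.2 and 35.4. That call was lost when any 1 of the 4 arrays of 12 or 48 h was left out (-0.65 to -0.40) and on the GAPDH-normalized scale (-0.55). Dpp4 was higher at 48 h (log2 difference 0.70, SE 0.135, limma adjusted p = 0.00403), and its call was lost without the RasGRP4-null array of 48 h (0.62). The other 6 did not pass, Clec9a, Itgax, Sirpa and Xcr1 among them.

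No member passed the test between RasGRP4-null and WT cells. The genotype comparison called 0 of the 8 members tested in limma, with 0.179% of all genes called, and the adjusted p of the members ranged from 0.379 to 0.941. At an unadjusted p under 0.05, before any adjustment over genes, 3 members (Batf3, Itgax and Dpp4) would have passed in limma, against 9.40% of all genes. Batf3 and Esam had higher values in RasGRP4-null cells at all 5 time points, Esam below background on 9 of the 10 arrays, and Dpp4 had lower values at all 5. How many of all genes lie on 1 side at all 5 time points was not counted, so no genotype effect is read from this. The log2 difference, RasGRP4-null minus WT, was 0.25 for Batf3 (SE 0.0855, limma adjusted p = 0.379), and it was -0.23 for Dpp4 (SE 0.0853, limma adjusted p = 0.410). Itgax had the largest one, 0.31 (SE 0.112, limma adjusted p = 0.403): it was -0.10 at 0 h and 0.20, 0.72, 0.32 and 0.42 over the LPS time points. These LPS values of Itgax lay near background (19.5 to 56.2), and the WT value at 24 h lay below it. The difference of 0.31 was 0.45 with a pseudocount of 1 and 0.15 with a pseudocount of 64. For Zbtb46 the differences after 12, 24, 36 and 48 h of LPS were 0.72, 0.39, -0.30 and -0.35, positive at the earlier and negative at the later times. With 1 array per group, a difference at a single time point has no replicate.

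**Figure D3:**
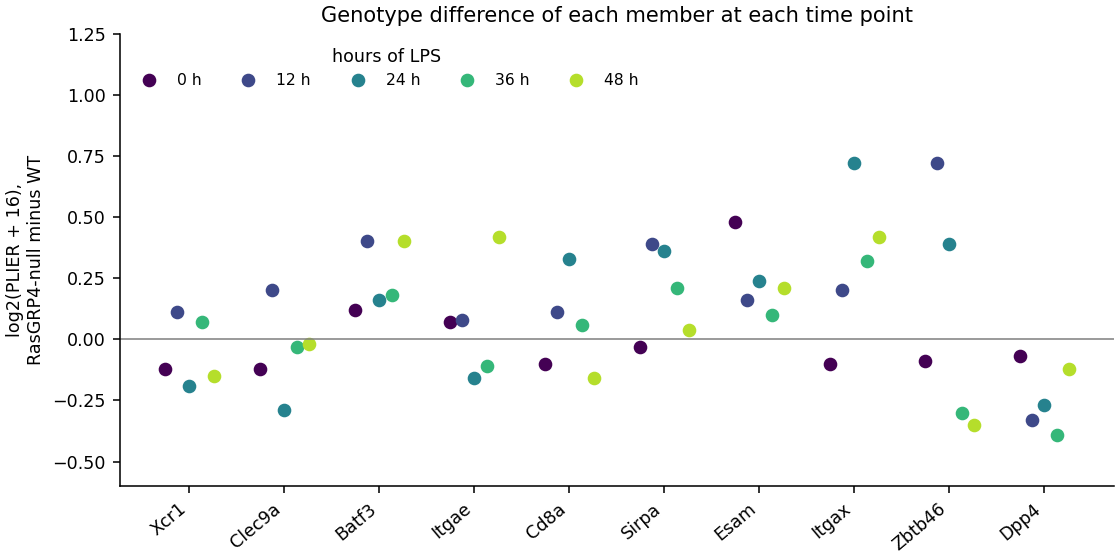
Difference in log2(PLIER + 16), RasGRP4-null minus WT (vertical axis), of the 10 members at each of the 5 time points, with 1 pair of arrays per point. Batf3 and Esam lie above 0 at all 5 time points, Dpp4 below 0 at all 5, and the other members on both sides. The share of all genes on 1 side at all 5 was not counted.

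The LPS change of the members did not pass a test of difference between the genotypes either. The interaction of genotype and LPS called 0 of the 8 members in limma and 0.179% of all genes. The adjusted p of the members ranged from 0.662, for Itgax, to 0.989, and 0 members passed at an unadjusted p under 0.05, against 7.50% of all genes. The log2 change of Itgax over the LPS time points was 0.52 less negative in RasGRP4-null than in WT cells, but its LPS values lay near background in both genotypes (19.5 to 56.2). With 3 residual degrees of freedom the design leaves wide errors here (SE 0.211 for Dpp4 to 0.370 for Zbtb46), and a p that misses the threshold does not show that the genotypes responded alike.

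The rule of the study's methods gives another view of 24 h of LPS: a transcript had to exceed 1% of Gapdh after LPS and to differ over 3.6-fold from 0 h on the GAPDH-normalized scale. In WT cells it was met by Xcr1 (7.19-fold lower) and Sirpa (17.0-fold lower), against 3.57% of all symbols called lower by it. In RasGRP4-null cells it was met by Cd8a (17.7-fold lower), Sirpa (15.6-fold lower) and Itgax (27.2-fold lower), against 4.59% of all symbols, and no member was higher. Xcr1, Cd8a and Itgax lay on different sides of the limit of 1% in the genotypes, Xcr1 at 1.38% in WT and 0.998% in RasGRP4-null cells, Cd8a at 0.940% and 1.13%, and Itgax at 0.574% and 1.10%. When presence at 0 h was also accepted, a choice made after seeing the data, the rule was met by 6 members in WT and 7 in RasGRP4-null cells, against 8.21% and 12.8% of all symbols.

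Other genes of the same subsets moved in both directions, as the plot of the gene lists shows. Of the 13 other XCR1-type genes measured, 11 were tested, 7 were lower, 3 were higher and 1 did not pass (median log2 change -0.77). Cadm1, an adhesion molecule, went from 1137 and 1321 to values below background on all 8 LPS arrays, at least 40.4-fold lower (limma adjusted p = 2.89e-11). Naaa, a lysosomal amidase, was lower as well (-2.80, limma adjusted p = 1.44e-08). Ly75, which encodes the endocytic receptor DEC-205, was higher (2.35, limma adjusted p = 2.65e-06), as was Nfil3, a transcription factor needed for the subset (0.87, limma adjusted p = 0.000727). On the GAPDH-normalized scale Nfil3 was at -0.14.

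Of the 11 other SIRPA-type genes tested, 8 were lower, 1 was higher and 2 did not pass (median log2 change -0.71). Klf4, a zinc finger factor of this subset and of monocytes, had a log2 change of -4.92 (limma adjusted p = 1.66e-09), and Clec12a, an inhibitory lectin, one of -3.46 (limma adjusted p = 1.09e-09). Irf4 was higher at 0.53 (limma adjusted p = 0.00703), and at -0.52 on the GAPDH-normalized scale. Of the 7 other shared genes, 6 were lower and 1 did not pass (median -0.83), with the largest changes in Cbfa2t3, a corepressor gene (-1.40, limma adjusted p = 1.05e-05), and Ciita, the master activator of MHC class II genes (-1.03, limma adjusted p = 2.04e-05).

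The factors that BATF3 works with did not move as a group. Irf8 was between 623.9 and 1038 after LPS and at 689.6 and 665.4 before, a log2 change of 0.31 (limma adjusted p = 0.0246) that was -0.74 on the GAPDH-normalized scale. Junb and Jund were lower, by log2 changes of -2.19 and -1.76 (limma adjusted p = 1.51e-06 and 3.82e-07). Batf, a paralog that mouse DCs can use in place of Batf3, was at 25.7 and 49.0 at 0 h and between 165.3 and 260.6 after LPS (2.08, limma adjusted p = 8.71e-07), and Batf2 was at 0.07 (limma adjusted p = 0.609). Xcl1, the ligand gene of XCR1, was at 709.8 and 831.0 at 0 h and between 82.8 and 275.0 after LPS (-2.19, limma adjusted p = 2.67e-07). Of the 14 partners and ligands tested, 7 were lower, 3 higher and 4 did not pass.

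Markers of other cells moved with the members, and their part in the members' changes was not tested. All 11 macrophage genes measured were lower (median log2 change -4.47, or -4.41 with the genes below background after LPS at their bounds), led by the complement genes C1qc, which was below background on all 8 LPS arrays and at least 203.8-fold lower, and C1qb (-5.30). The summed PLIER value of the macrophage list was 18583 and 19563 at 0 h and 495.0 to 965.9 after LPS. For this and the other lists, the sums at 0 h are given with the lower first, whichever the genotype. Since probe sets are not on a common scale, such sums are led by their brightest probe sets and do not measure cell numbers. C1qc alone was at 5842 and 6537 at 0 h. The 6 neutrophil genes tested were all lower too, S100a8 (-5.38) and Ngp (-4.80) most, and that list went from 4870 and 8007 to between 143.0 and 815.9; its defining gene Ly6g was below background on all arrays. For T cells, 5 of 9 genes tested were lower, 1 was higher and 3 did not pass, from Cd2 (-1.18) and Cd28 (-0.89) to Thy1 (0.40), and the sum was 1286 and 1478 at 0 h and 807.1 to 1185 after LPS.

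The remaining lists held changes in both directions or few genes. Of 8 B cell genes, 2 were lower (Fcer2a at -4.31 and Blk at -0.45), 2 higher (among them Cd79b at 0.42) and 4 did not pass, with sums of 6584 and 7285 at 0 h and 3576 to 8025 after LPS. Of 5 NK cell genes, 2 were lower (Klrd1 at -1.20 and Klre1 at -0.57), 2 higher (Prf1 at 0.63 and Gzma at 0.59) and 1 did not pass, with sums of 947.4 and 1003 at 0 h and 513.5 to 1286 after LPS. Of 5 plasmacytoid DC genes, 2 were lower (Lair1 at -2.58 and Pacsin1 at -0.32) and 3 higher, among them Cox6a2 (2.69) and Bst2 (2.01, an interferon-induced gene), while Siglech, which defines these cells, was below background on all 8 LPS arrays. The plasmacytoid DC sum was 982.3 and 1031 at 0 h and 1942 to 2642 after LPS, with Bst2 alone at 1085 to 1810 after LPS, so its rise is not one of the list as a whole. Endothelial genes were lower in 2 of 3 (Cdh5 at -0.67 and Pecam1 at -0.30), and neither platelet gene tested passed, with Pf4 below background on both untreated arrays. The endothelial sum was 649.3 and 650.8 at 0 h and 457.2 to 626.3 after LPS, and the platelet sum 148.4 and 176.4 at 0 h and 117.4 to 262.0 after LPS. Thy1, Cd79b, Prf1 and Gzma were below 0 on the GAPDH-normalized scale.

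**Figure D4:**
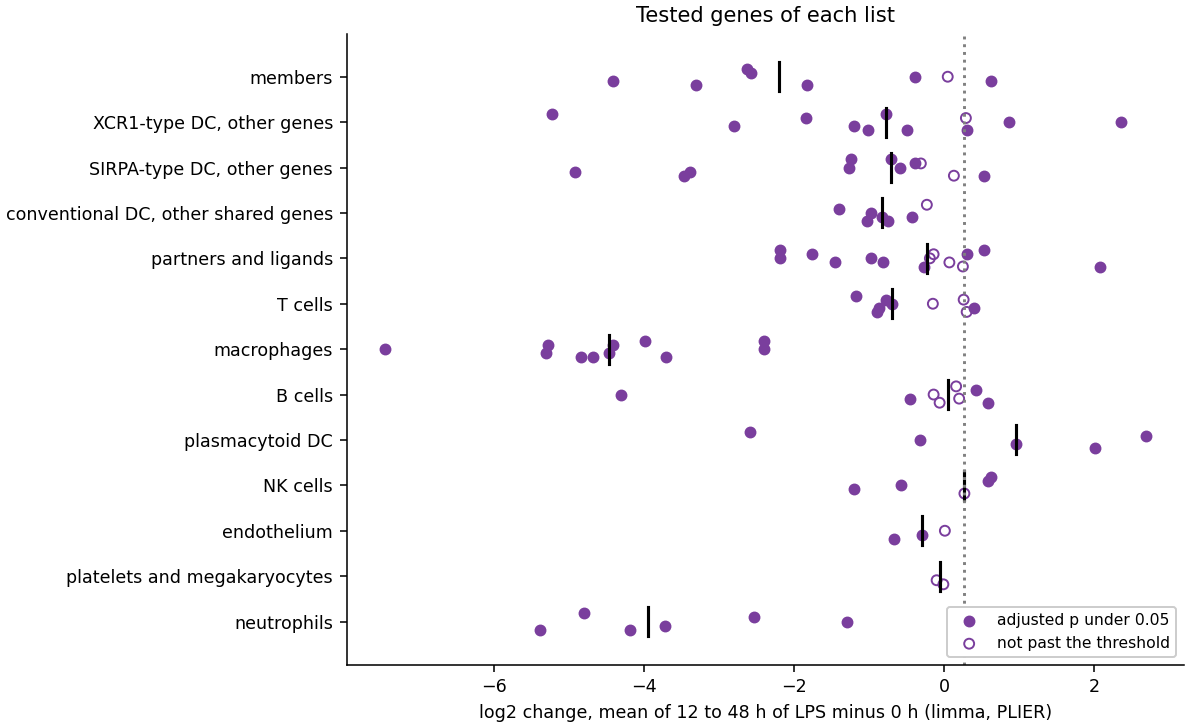
Log2 change (mean of 12 to 48 h of LPS minus 0 h, PLIER scale, horizontal axis) of every tested gene of the members and of each other list, filled where the limma adjusted p passed 0.05; black bars are list medians and the dotted line is the median of all genes. The members' median of -2.20 lies between those of the macrophage genes (-4.47) and of the other cDC genes (-0.83 to -0.71).

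The genes most like 3 of the members were found by the root mean square difference of the log2 change from 0 h over the 8 LPS arrays. Those nearest to the shared probe set of Clec9a were LOC100038947, Abcc3, Adamdec1, Rhob and Cd5l (0.18 to 0.20), the last of them a gene of splenic red pulp macrophages. All 8 LPS values of the Clec9a probe set were below background, as were those of LOC100038947, Abcc3 and Cd5l, so that this likeness rests on the drop from 0 h to the floor and no order among the 5 can be read from it. Nearest to Sirpa were Tlr8, Sema6d, Cxx1c, 1700016P03Rik and Tyrobp (0.13 to 0.24). Tlr8, Cxx1c and 1700016P03Rik were below background on all 8 LPS arrays, whereas Sirpa stayed above it. Nearest to Itgax were Itgb5, Tcf7l2, Epb4.1l3, Clec4a1 and S100a4 (0.27 to 0.33), of which Tcf7l2, Epb4.1l3 and Clec4a1 were below background on all 8. The changes of such genes depend on the floor and the pseudocount, so no order can be read from these 2 rankings either. Of the 15 genes, 9 were below background on all 8 LPS arrays, and only Rhob, Tyrobp and Itgb5 were above it on all 8. None of these 15 genes was a member or belonged to the fixed lists of cDC genes, and the 8 arrays share 2 untreated arrays as their reference.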

How the data were processed

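The authors computed PLIER intensity values with Affymetrix Expression Console (versions, build and annotation not given in the sources used here), and the value table of the series holds the deposited intensity multiplied by 1 GAPDH factor per array and rounded. The column names hold the terms PM-BG and Sketch, so arrays may already share a distribution. A further table repeats both, and its 20 columns of per-sample values were not used. Of 41345 probe sets 26679 carry 1 symbol, and the brightest was kept per symbol. Genes at 50 or more on at least 2 arrays were tested with limma 3.58.1 (R 4.3.3) on log2(PLIER + 16), two-sided with Benjamini-Hochberg adjustment (4 residual degrees of freedom, 3 for the interaction); the fit was tested on simulated data. Lower bounds of folds set LPS arrays at background. The number of arrays limits the precision.

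The members, lists, tests and alternatives were chosen with earlier results of these data known. Named are all members, their partners and ligands, up to 2 called genes with the largest rise and up to 2 with the largest fall per other list, the 5 genes most like Clec9a, Sirpa and Itgax, and check genes; Cd47, Cxcl12 and Ada are partners, and Ly6g, Siglech and Pf4 were added after their values were seen. The values of 1 gene of the B cell list are not reported here. The alternatives changed the scale (GAPDH-normalized), the normalization (quantile), the pseudocount (1 or 64), the filter (none or 100), the probe sets (every one with a single symbol), the variance model (intensity trend), the time points used, the arrays (each left out), the level of background (90th or 99th percentile) and the fold of the study's rule. Python 3.11.15 was used.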

Additional observations from a re-analysis of the deposited data

How the results depend on the processing

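The calls of the 5 members with the largest falls (Clec9a, Itgax, Sirpa, Cd8a and Xcr1) passed in every alternative that was run. On the GAPDH-normalized scale 7 members were called lower, with Dpp4 added, against 7736 of the 11186 genes tested. Without the filter 8 were called lower, with Itgae (-0.60) and Esam (-0.73) added, against 3936 of 25665 genes. The number of members called lower was 6 and ranged from 5 to 6 over the fits that left out 1 array. The number called higher was 1; it was 0 on the GAPDH-normalized scale, on which Zbtb46 was at -0.29 and Dpp4 at -1.0, and 2 with 36 and 48 h only, and from 0 to 1 with 1 array left out. The number called between 48 h and 12 h was 2, and it was 1 on the GAPDH-normalized scale and from 0 to 2 with 1 array left out. No alternative called a member for genotype or for the interaction. The interaction could not be fitted without either untreated array. The XCR1-type minus SIRPA-type value of 0.33 was -0.06 with a pseudocount of 1, 0.79 with 64 and 1.03 without Clec9a, a choice made after seeing the data. The filters, the probe set choice and the variance model do not enter this value. The study's rule was met by 2 members in WT and 3 in RasGRP4-null cells, by 4 and 5 at 2-fold, and by 6 and 7 with presence at 0 h accepted. Of the 10 members, 7 were above background on at least 1 LPS array, 8 with background at the 90th percentile of the olfactory receptors and 4 (Batf3, Sirpa, Zbtb46 and Dpp4) at the 99th. The fit compares the genotypes within the 5 time points, and a further block by replicate could not be fitted with 1 array per group.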
